A study of Mus musculus with 2 samples.

Results

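9 transcription factor genes that direct the formation of myeloid and dendritic cells were followed across the leukocytes of mouse melanomas. The members, Spi1, Cebpa, Cebpb, Klf4, Maf, Batf3, Id2, Zbtb46 and Tcf4, were taken as a list of symbols, and all 9 were found among the 32285 genes of the deposited tables. The list was chosen with earlier results of these data known.

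Single-cell RNA sequencing on the 10x Genomics platform was run on leukocytes, sorted as CD45-positive cells from subcutaneous tumours of B16F10, a transplantable mouse melanoma line. The IL4 library came from mice that had received bone-marrow-derived macrophages (BMDMs) treated with IL-4, a cytokine of type 2 immunity, and the control library from mice that had received BMDMs without treatment. The genotype of both is labelled WT, and a treatment field of the labels names IL-4-treated BMDMs for both libraries, so the grouping rests on the treatment given among the sample characteristics. There was 1 library per group, so no difference between them has a replicate check, no test was run, and every interval below is a 95% interval for counting error only. The sources used here do not say how many animals or tumours were pooled into a library, and transferred cells cannot be told apart from the cells of the host.

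Lineage transcription factors bind the regulatory DNA of the genes that give a cell type its character, and they act in combinations rather than singly. PU.1, encoded by Spi1, works with the C/EBP factors to open the myeloid programme. Klf4 and Maf act later, in monocytes and macrophages, while Batf3, Id2, Zbtb46 and Tcf4 mark branches of the dendritic lineage. Id2 and Tcf4 oppose each other in that lineage, because Id2 protein blocks E proteins and Tcf4 encodes one.

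The IL4 library held 13873 barcodes with a median of 8213 UMIs, and the control library 8994 with a median of 9156.5 UMIs. A UMI, or unique molecular identifier, stands for 1 captured RNA molecule. Barcodes were sorted into 12 leukocyte gates by holding UMIs of most of a type's markers, and no member served as a marker. 1 gate only was met by 45.8% of kept IL4 barcodes and 48.0% of kept control barcodes, no gate by 41.5% and 40.1%, and several gates by 12.7% and 11.96%. A gate is a range on a marker count, not a pure type: in the macrophage gate 398 IL4 and 250 control barcodes lay exactly at the minimum of 7 markers. Among all kept barcodes, whatever other gate they met, 1021 IL4 and 687 control ones lay 1 marker short of it. Ptprc, which encodes CD45, had a UMI in 89.9% of kept IL4 and 89.0% of kept control barcodes. No doublet caller was run, and 23 barcode sequences occurred in both libraries. Among barcodes with transcripts of 1 sex only, Y-linked ones made up 10.9% in the IL4 and 36.8% in the control library, so both kinds of barcode are also described apart where that bears on a result.

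3 of the genes have a RefSeq promoter window that lies wholly upstream of the annotated gene, and these are shown because Cebpb and Klf4 on the one hand and Cebpa on the other ran in opposite directions between the monocyte and macrophage gates described below. They give the 250 bases before the RefSeq start, 5′ to 3′ on the gene's own strand, in GRCm38.p6. Capitals mark CACCC or its reverse complement, the core of sites bound by KLF factors.
Cebpa, chr7:35119043-35119292, plus strand: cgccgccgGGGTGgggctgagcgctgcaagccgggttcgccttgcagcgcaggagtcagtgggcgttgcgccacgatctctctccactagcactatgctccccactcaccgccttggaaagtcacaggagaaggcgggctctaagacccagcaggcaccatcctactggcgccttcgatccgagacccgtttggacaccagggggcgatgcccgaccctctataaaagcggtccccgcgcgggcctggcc
Cebpb, chr2:167688665-167688914, plus strand: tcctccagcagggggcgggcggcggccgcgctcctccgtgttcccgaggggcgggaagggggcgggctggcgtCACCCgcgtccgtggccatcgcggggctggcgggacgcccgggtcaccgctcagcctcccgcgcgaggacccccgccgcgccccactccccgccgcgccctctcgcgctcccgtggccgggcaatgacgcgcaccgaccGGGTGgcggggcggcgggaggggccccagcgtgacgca
Klf4, chr4:55532476-55532725, minus strand: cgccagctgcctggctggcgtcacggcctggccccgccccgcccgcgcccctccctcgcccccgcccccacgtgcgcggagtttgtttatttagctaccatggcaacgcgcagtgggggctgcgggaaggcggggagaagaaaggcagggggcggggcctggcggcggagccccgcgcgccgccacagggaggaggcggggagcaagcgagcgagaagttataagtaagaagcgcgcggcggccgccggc
The Cebpa window holds 1 CACCC match and the Cebpb window 2, counted on both strands, and the Klf4 window has none of these letters. Such a match occurs in 52.0% of 32851 mouse promoter windows of the same length, so it is common by letters alone. The PU.1 core GAGGAA, searched on both strands, occurs in 23.3% of these windows and in none of the 3 shown, and the C/EBP motif TTGCNNAA in 9.56% and likewise in none of the 3.

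In the GENCODE M21 annotation of the same build, Cebpa lies at chr7:35119293-35121928, Cebpb at chr2:167688915-167690418 and Klf4 at chr4:55527143-55532466. Spi1 lies at chr2:91082390-91115756, Batf3 at chr1:191097847-191108945, Id2 at chr12:25093799-25097140 and Zbtb46 at chr2:181387762-181459426. Cebpa overlaps Gm45091, Cebpb overlaps Tmem189 and Maf overlaps Gm15655 on the opposite strand. Zbtb46 and Tcf4 each contain a predicted gene on their own strand. UMIs from such overlaps could not be separated further with the tables used here.

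Levels by cell type are given as CPM, that is, counts per 1e6 UMIs of the gate, which makes gates of different depth comparable for 1 gene. Of the 9 genes, 8 had their highest level in the same gate in both libraries. Spi1 was the exception, and its level was broad rather than peaked.

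Spi1, whose product PU.1 is needed for all myeloid cells, stood at 685 CPM in the IL4 and 501 CPM in the control neutrophil gate. The non-classical monocyte gate had 671 CPM in IL4 and 662 CPM in control, on 22 and 25 barcodes. In the classical monocyte gate it stood at 505 CPM in IL4 and 452 CPM in control. The 2 leading gates overlapped in their intervals in the IL4 library, and the order of the leading gates differed between the libraries. Spi1 then ran at 489.7 and 481 CPM in IL4 and control cDC2, the conventional dendritic cells that present to CD4 T cells, and at 446 and 405 CPM in macrophages. cDC1, the dendritic cells that cross-present antigen to CD8 T cells, had 339 CPM in IL4 and 367 CPM in control, and mature dendritic cells 329.8 and 292 CPM. The lowest gate was NK cells, with 72.7 CPM in IL4 and 67.1 CPM in control, a type in which PU.1 is not a lineage factor. A Spi1 UMI was held by 93.3% of IL4 and 92.4% of control macrophages at medians of 9909 and 11223 UMIs, against 26.8% and 21.1% of NK cells at 7405 and 7347 UMIs. After thinning every barcode to 1000 UMIs these shares were 33.2% and 32.3% in macrophages and 6.47% and 1.71% in NK cells.

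Cebpb, the C/EBP factor of emergency granulopoiesis and inflammatory gene expression, was highest in neutrophils. It reached 1917 CPM (1778 to 2064) in IL4 and 2021 CPM (1928 to 2117) in control neutrophils, on 109 and 218 barcodes. The next gate, non-classical monocytes, had 1181 CPM in IL4 and 886 CPM in control. Classical monocytes had 824 and 781 CPM and macrophages 567 and 506 CPM. The order neutrophil, classical monocyte, macrophage, cDC2, cDC1 held in both libraries, and the last of these had 130.2 CPM in IL4 and 98.5 CPM in control.

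Cebpa, the C/EBP factor needed to enter the granulocyte and monocyte lineage, had another order from its relative. Macrophages led with 123 CPM (116 to 130) in IL4 and 112 CPM (105 to 120) in control. Classical monocytes stood at 68.6 CPM in IL4 and 78.2 CPM in control, and neutrophils, the top gate of Cebpb, at 59.999 and 23.0 CPM on 22 and 20 UMIs. The neutrophil values are thin: after thinning, 1.89% of IL4 and 1.42% of control neutrophils held a Cebpa UMI, against 11.4% and 11.5% of macrophages. NK cells, which do not depend on the factor, had 14.1 CPM in IL4 and 8.38 CPM in control.

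Klf4, which supports the monocyte fate and above all the patrolling, non-classical monocytes, was highest in that gate. It had 1474 CPM (1296 to 1671) in IL4 and 1215 CPM (1067 to 1377) in control non-classical monocytes, on 246 and 244 UMIs. Classical monocytes had 619 CPM in IL4 and 580.3 CPM in control, so the leading gate stood apart from them in both libraries. The pDC gate was second in IL4 with 645 CPM and lowest in control with 120.4 CPM. In the non-classical gate the 8 classical monocyte markers summed to 5388 CPM in IL4 and 6661 CPM in control. Its own 6 markers summed to 1444 and 1518 CPM, and the classical gate held 6077 and 5325 CPM of the classical markers. The part of classical monocytes in this Klf4 level was not tested. Macrophages had 498 and 418 CPM and cDC2 479 and 508 CPM. When Leiden clusters replaced the gates, no cluster was named non-classical monocyte and the top class of Klf4 became the classical monocytes.

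Maf, a factor of tissue macrophages and of some T helper and regulatory T cells, was highest in the macrophage gate. It stood at 394 CPM (382 to 407) in IL4 and 527 CPM (511 to 543) in control macrophages. T cells without CD8 transcripts followed with 208 CPM in IL4 and 217 CPM in control, and classical monocytes with 199.97 and 194 CPM. The intervals of these 2 gates overlapped in both libraries, and neither reached the macrophage level. The lowest levels were in dendritic cells, with 22.3 and 22.1 CPM in cDC2, 24.1 and 18.1 CPM in mature dendritic cells, and 26.1 and 11.6 CPM in cDC1. Barcodes with a Maf UMI made up 87.6% of IL4 and 92.6% of control macrophages, and 14.5% and 14.0% of cDC2, whose medians were 12237.5 and 14406 UMIs.

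**Figure D1:**
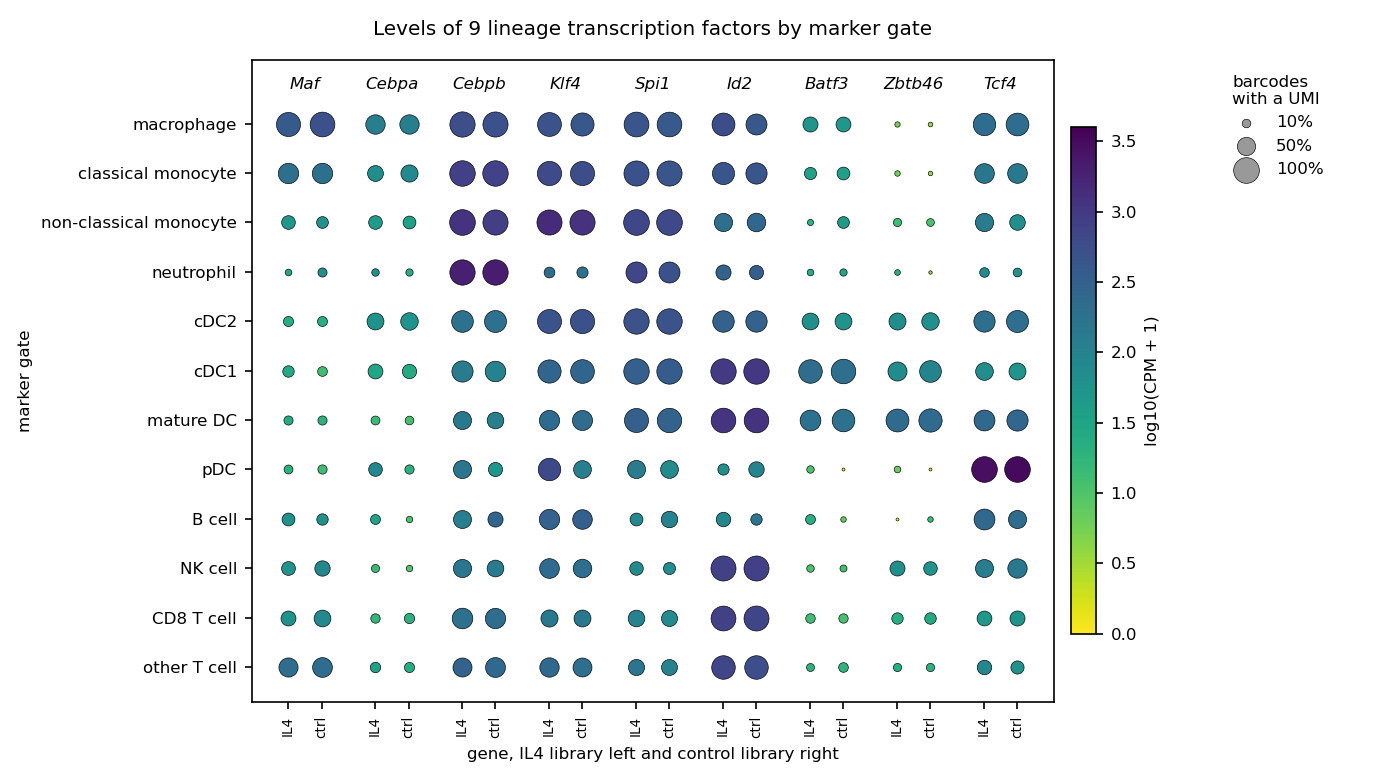
Dots give each gene (across, IL4 library left of control library) in each of 12 marker gates (down). Colour is log10 of CPM plus 1 and size is the percent of barcodes with a UMI. Tcf4 stands out in pDC, Cebpb in neutrophils and Maf in macrophages, and Zbtb46 is near the low end in macrophages and classical monocytes in both libraries.

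Batf3, required for the development of cDC1, was highest in that gate with 216 CPM (201 to 232) in IL4 and 205 CPM (189 to 222) in control. Mature dendritic cells, marked by Ccr7 and on their way to lymph nodes, came close with 175 CPM (163 to 187) in IL4 and 184 CPM (169.5 to 200.1) in control. The gates overlapped in the control library and not in the IL4 library. A clear step lay below them, at 63.5 CPM in IL4 and 56.0 CPM in control for cDC2, and 51.0 and 46.6 CPM for macrophages. A Batf3 UMI was held by 83.9% of IL4 and 91.4% of control cDC1 at medians of 16007 and 20105 UMIs, against 7.39% and 6.29% of NK cells. The thinned shares were 17.1% and 15.9% in cDC1, 12.9% and 16.5% in mature dendritic cells, and 1.39% and 0.571% in NK cells. By this measure mature dendritic cells stood above cDC1 in the control library.

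Id2, an inhibitor of E proteins that is needed by cDC1, NK cells and other innate lymphocytes, was highest in mature dendritic cells. These had 1109 CPM (1079.6 to 1139) in IL4 and 1172 CPM (1135 to 1211) in control. cDC1 had 959.6 CPM in IL4 and 1054 CPM in control, NK cells 796 and 816 CPM, and CD8 T cells 795 and 734 CPM. By CPM the first 3 gates kept this order in both libraries. An Id2 UMI was held by 97.7% of IL4 and 98.0% of control cDC1, against 91.9% and 91.7% of mature dendritic cells. After thinning these shares were 53.5% and 61.6% in cDC1 and 57.2% and 51.2% in mature dendritic cells. cDC2 stood far lower with 307 CPM in IL4 and 302 CPM in control. Plasmacytoid dendritic cells (pDC), the producers of type I interferon in which E protein activity is kept, had 64.1 CPM in IL4 and 95.1 CPM in control and were the lowest gate for Id2.

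Zbtb46, a factor of conventional dendritic cells that is widely used to tell them from macrophages, was highest in mature dendritic cells. It had 225 CPM (212 to 239) in IL4 and 236 CPM (219.6 to 254) in control there. cDC1 had 72.1 CPM in IL4 and 96.2 CPM in control, and cDC2 69.4 and 66.2 CPM. Macrophages had 4.67 CPM in IL4 and 2.36 CPM in control and classical monocytes 4.80 and 2.22 CPM. A Zbtb46 UMI occurred in 79.1% of IL4 and 81.8% of control mature dendritic cells at medians of 10645 and 12582 UMIs, against 3.04% and 2.02% of macrophages.

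NK cells carried Zbtb46 at a level whose interval overlapped that of cDC2 in both libraries, with 65.2 CPM (57.6 to 73.5) in IL4 and 52.9 CPM (42.1 to 65.6) in control. A UMI was found in 33.5% of IL4 and 26.9% of control NK barcodes, and in 8.55% and 6.86% after thinning, against 7.55% and 3.86% of cDC2 after thinning. The summed levels of the 7 mature dendritic cell markers in the NK gate were 85.1 CPM in IL4 and 56.1 CPM in control, with 1 of 7 markers at 0 in each, against 6955 and 7003 CPM in the mature dendritic cell gate. The 7 cDC2 markers summed to 76.6 and 95.4 CPM in the NK gate, with 0 of 7 at 0. CD8 T cells had 20.9 CPM of Zbtb46 in IL4 and 24.8 CPM in control, below the NK gate in both libraries.

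Tcf4, the E protein that fixes pDC identity, was the most selective of the 9 genes. The pDC gate had 2937 CPM (2793 to 3086) in IL4 and 3194 CPM (2921 to 3485) in control, 11.8 times and 12.5 times the next gate. All 55 IL4 and 17 control pDC barcodes held a Tcf4 UMI, and 90.9% and 94.1% did after thinning. B cells, which also depend on E proteins, had 249.6 CPM in IL4 and 216 CPM in control. Mature dendritic cells, the top gate of Id2, had 249.1 and 256 CPM, overlapping with B cells in both libraries. cDC1, where Id2 was high, had 69.9 CPM of Tcf4 in IL4 and 51.5 CPM in control.

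Across the 12 gates and 2 libraries, which give 24 points that share library and depth within each library, Id2 and Tcf4 had a Pearson correlation of -0.62 on log2 of CPM plus 1. The pDC gate was the highest for Tcf4 and the lowest for Id2 in both libraries, and the correlation without it was not computed. Id2 and Zbtb46 had 0.69, and Spi1 and Cebpb 0.64. Among 8390 genes that reached 20 CPM in a gate of each library, the 3 closest to each member were taken. Members themselves and predicted genes, those with Gm or Rik names, are included in that number but were left out of the choice. Spi1 was most like Csf2ra, a GM-CSF receptor chain (0.96), Ifitm2 (0.92) and Pirb (0.91), and Cebpb most like Rab20 (0.96), Clec4e, a receptor for microbial glycolipids (0.95), and Slc11a1 (0.94). Cebpa was closest to Ifi207 (0.91), Hexa and Cd68 (0.87 each), Klf4 to Dlst (0.89), Zfand5 (0.84) and Dusp3 (0.82), and Maf to Dennd1a (0.91), Slc16a10 (0.85) and F13a1 (0.83). Batf3 was closest to Lima1, Tbc1d9 (0.88 each) and Nav1 (0.86), and Id2 to Ubash3b (0.89), Myl6 (0.86) and Pfn1 (0.85). Tcf4 was closest to Tsc22d1 (0.91), Cdh22 (0.87) and Klk1 (0.87), the last a marker of the pDC gate. Zbtb46 was closest to H2afz, Prex1 (0.83 each) and Cnn2 (0.82), the lowest best match of the 9.

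Barcodes that met 2 neighbouring gates were set apart and described on their own, as doublets and cells between states cannot be told apart among them. Those meeting the classical monocyte and macrophage gates numbered 375 in IL4 and 240 in control, and had higher medians, 13778 and 15283.5 UMIs, than either gate alone. Maf stood at 394 CPM in macrophages, 322 CPM in this overlap and 199.97 CPM in classical monocytes of the IL4 library. In the control library the same 3 sets had 527, 365 and 194 CPM. Cebpa ran the same way, with 123, 102 and 68.6 CPM in IL4 and 112, 91.8 and 78.2 CPM in control. Cebpb ran the other way, with 567, 642 and 824 CPM in IL4 and 506, 598 and 781 CPM in control. Klf4 had 498, 503 and 619 CPM in IL4 and 418, 471 and 580.3 CPM in control. In each of these 4 genes the overlap lay between the 2 single gates in both libraries, though for Klf4 in IL4 its interval met that of the macrophages. Batf3 and Tcf4 were graded in both libraries too. For Batf3, though, the overlap's interval met that of classical monocytes in both libraries, and that of macrophages in control. Id2 was graded only in IL4, with 579, 500 and 466 CPM. In control Id2 had 416, 365 and 431 CPM, so that the overlap lay below both gates. Spi1 in control and Zbtb46 in both libraries were not graded either, though the overlap's interval met that of a single gate.

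A second such series ran between cDC2 and mature dendritic cells, with 77 IL4 and 59 control barcodes in the overlap. Id2 had 1109 CPM in mature dendritic cells, 601 CPM in the overlap and 307 CPM in cDC2 of the IL4 library, and 1172, 611 and 302 CPM in the control library. Zbtb46 had 225, 151 and 69.4 CPM in IL4 and 236, 157 and 66.2 CPM in control. Batf3 followed with 175, 116 and 63.5 CPM in IL4 and 184, 113 and 56.0 CPM in control. Id2, Zbtb46 and Batf3 were thus graded alike in both libraries. Spi1, Cebpa and Klf4 were graded the other way in both libraries. Klf4 had 227, 250 and 479 CPM in IL4 and 217, 369 and 508 CPM in control. The overlap's interval met that of cDC2 for Spi1 in both libraries, and that of mature dendritic cells for Cebpa and Klf4 in IL4. Maf in both libraries and Cebpb in control were not graded, though the overlap's interval met that of a single gate. Tcf4 in IL4 was not graded, with 249.1 CPM in mature dendritic cells, 384 CPM in the overlap and 199.98 CPM in cDC2. There the overlap lay above both gates. In the control library Tcf4 had 256, 253 and 201 CPM. Between classical monocytes and cDC2, Zbtb46 had 69.4 CPM in IL4 cDC2, 41.3 CPM in the 147 overlap barcodes and 4.80 CPM in monocytes, and 66.2, 33.7 and 2.22 CPM in control, with 100 overlap barcodes.

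**Figure D2:**
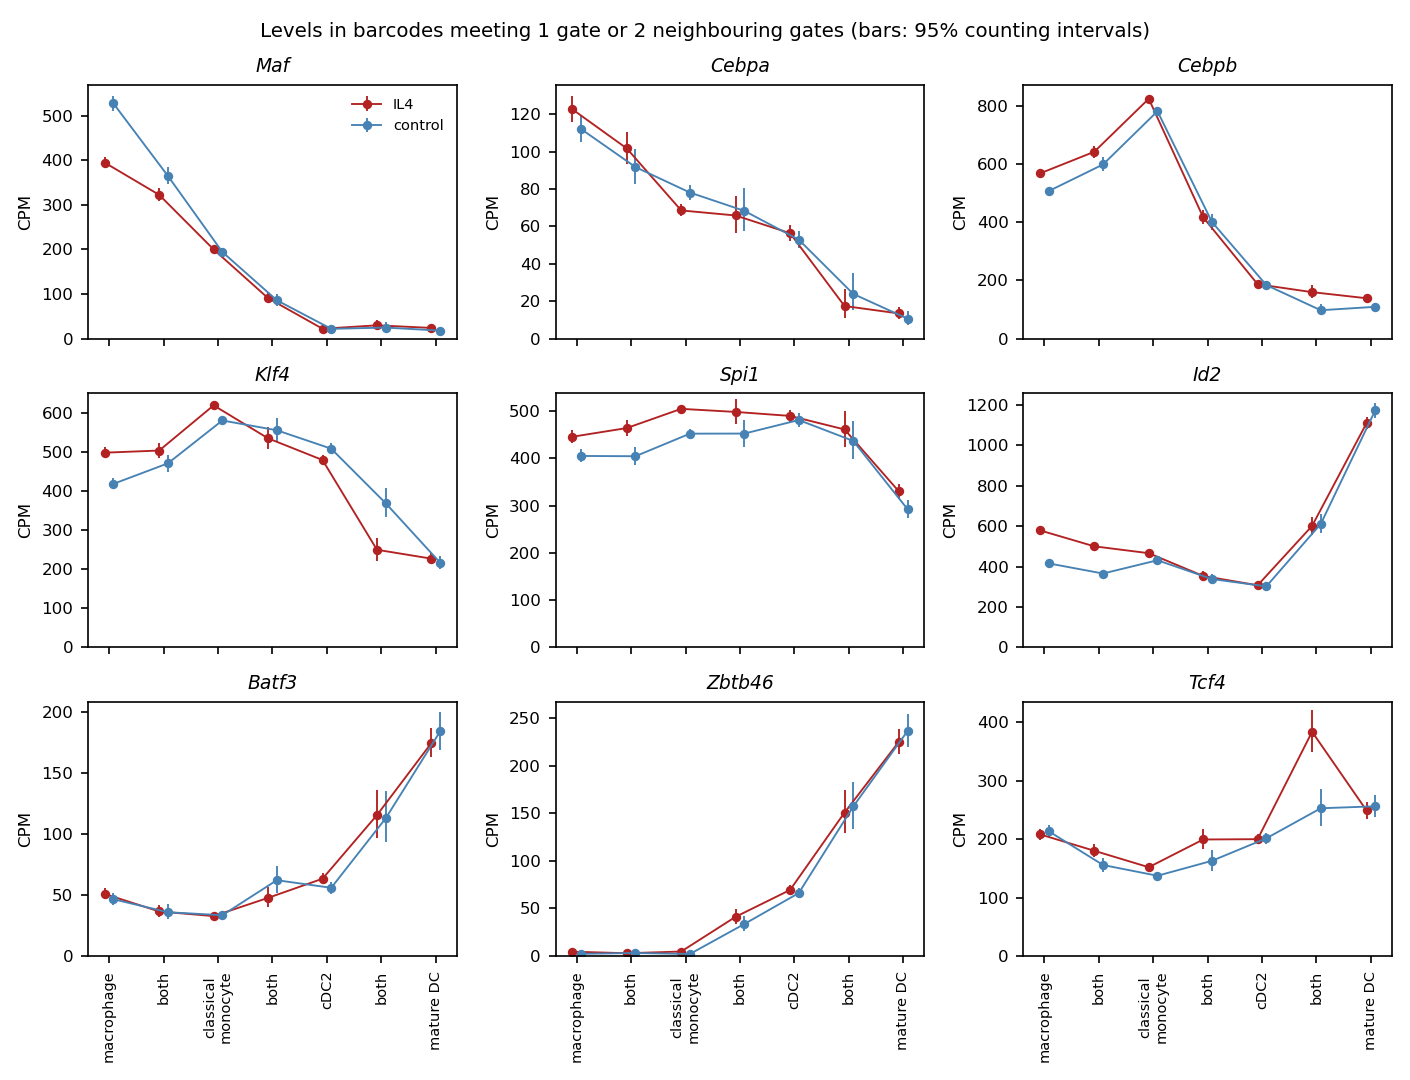
CPM of each gene in barcodes of 1 gate or of 2 neighbouring gates, labelled both, with IL4 in red and control in blue and 95% counting intervals as bars. Among the sets drawn, which leave out cDC1, Maf and Cebpa are highest in macrophages. Id2, Batf3 and Zbtb46 are highest there in mature dendritic cells, though Batf3 was higher in cDC1.

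Within gates, the libraries were then compared. A gene was called when the libraries lay 1.5-fold apart in CPM plus 1, with at least 20 UMIs over both libraries. In the macrophage gate 1 of 9 members passed this limit, against 10.9% of 11784 genes tested (3.61% higher and 7.32% lower), so the count is near the background. The member that passed was Zbtb46, on 46 IL4 and 19 control UMIs, with 4.67 CPM in IL4 and 2.36 CPM in control (fold 1.98, 1.14 to 3.58). The summed mature dendritic cell markers in the same gate were 43.2 CPM in IL4 and 27.2 CPM in control, with 0 of 7 at 0. The cDC2 markers summed to 325 CPM in IL4 and 307 CPM in control, and the cDC1 markers to 220 and 270 CPM. The part of such transcripts in the Zbtb46 difference was not tested. The call was lost with the mean of per-cell CPM, in Xist-only barcodes (log2 ratio 0.45 on 35 and 14 UMIs) and in Y-only barcodes (0.37 on 3 and 5 UMIs), and with Leiden clusters the log2 ratio turned to -0.063 on 17 and 15 UMIs.

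Maf in macrophages was lower in the IL4 library without reaching the limit. Its 394 CPM in IL4 and 527 CPM in control gave a fold of 0.748 (0.716 to 0.782), and its counting intervals in the 2 libraries did not overlap. The fold was 0.740 (0.702 to 0.781) in Xist-only barcodes, 756 in IL4 and 407 in control, and 0.771 (0.684 to 0.868) in Y-only barcodes, 84 and 170. Maf was thus lower in the IL4 library in both kinds of barcode. Over the alternatives tried, the log2 ratio ran between -0.53 and -0.29.

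Id2 in macrophages was higher in the IL4 library, at 579 CPM (564 to 594) against 416 CPM (402 to 430.0) in control, a fold of 1.39 (1.33 to 1.45). A UMI was found in 79.3% of IL4 and 66.2% of control macrophages, and in 35.2% and 26.3% after thinning. The size of this difference depended on the barcodes. In Xist-only macrophages Id2 stood at 584 CPM in IL4 and 329 CPM in control, a fold of 1.78 (1.68 to 1.89). In Y-only macrophages it stood at 531 CPM in IL4 and 499 CPM in control, a fold of 1.06 (0.955 to 1.18) whose interval spans 1. Of the 4 sets, the Xist-only control macrophages had the lowest level. The difference between the 2 folds was not tested. Y-only barcodes made up 10.0% of the IL4 and 29.5% of the control macrophage gate among those with transcripts of 1 sex.

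**Figure D3:**
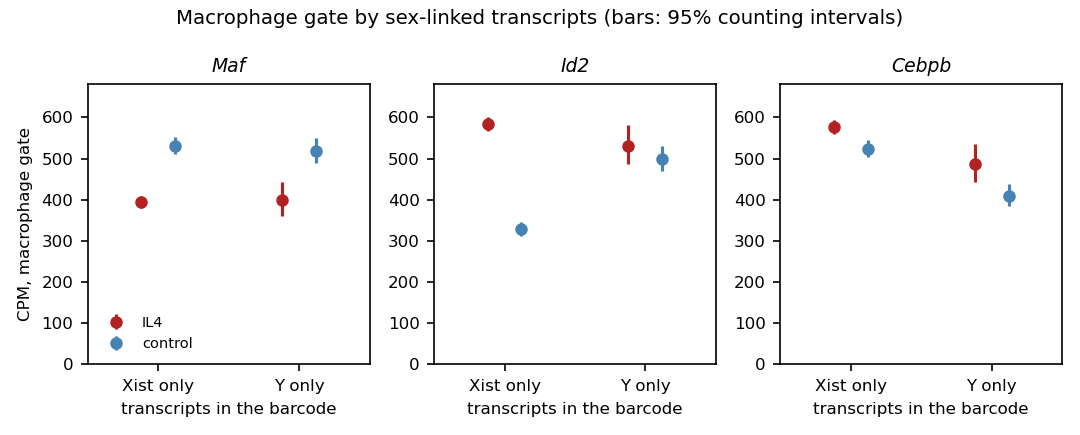
CPM of Maf, Id2 and Cebpb in the macrophage gate, split into barcodes with Xist only and with Y-linked transcripts only, with IL4 (red) left of control (blue) and 95% counting intervals. Maf is lower in IL4 in both sets, whereas for Id2 the libraries lie apart in Xist-only barcodes (584 and 329 CPM) and overlap in Y-only barcodes (531 and 499 CPM).

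The number of macrophage markers in a barcode also went with Maf and Id2, and with Cebpb. For barcodes with 7, 8, 9 and at least 10 markers, Maf stood at 368, 378, 399 and 476 CPM in IL4 and at 425, 499, 551 and 657 CPM in control. Maf thus increased with the marker count in both libraries and was lower in IL4 at every count. In IL4 its intervals at 7, 8 and 9 markers overlapped. Id2 stood at 625, 584, 578 and 465 CPM in IL4 and at 579, 437, 391 and 218 CPM in control. Its level decreased with the marker count in both libraries and by more in control. The libraries thus lay closest at 7 markers and farthest apart at 10 or more, the latter with 130 IL4 and 147 control barcodes. In IL4 the Id2 intervals at 7, 8 and 9 markers overlapped. Cebpb decreased too, with 654, 618, 459 and 429 CPM in IL4 and 620, 565, 454 and 354 CPM in control. Klf4 was lower at 10 or more markers than at 7 in both libraries, but not at every step. Depth differed between these sets, with medians of 8804.5, 9913.5, 11285 and 11394 UMIs in IL4 and of 9744.5, 11530, 11301 and 13552 UMIs in control, and its part was not tested.

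**Figure D4:**
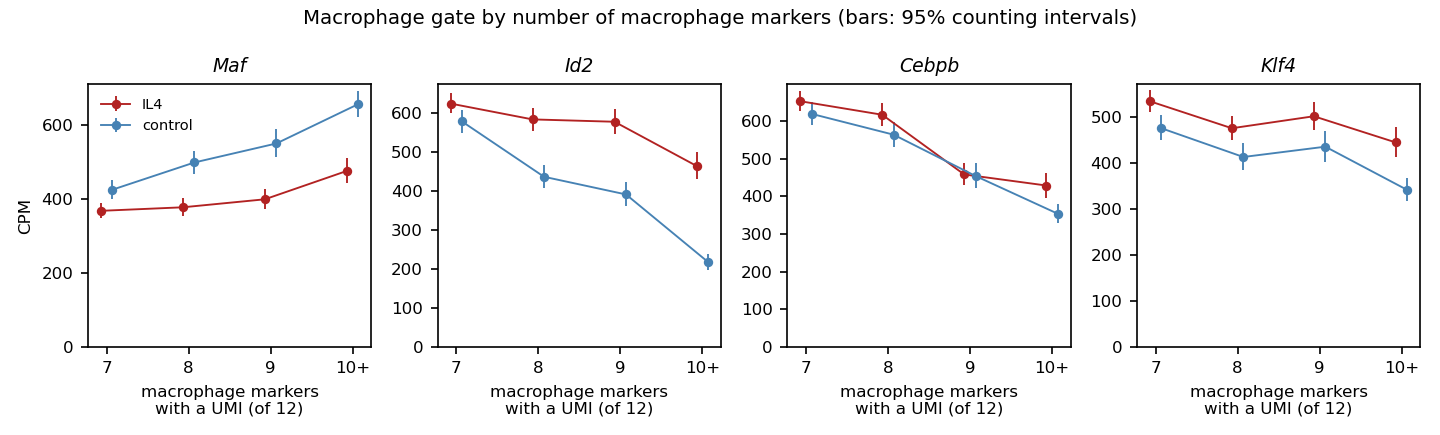
CPM of Maf, Id2, Cebpb and Klf4 in macrophage-gate barcodes by the number of the 12 macrophage markers with a UMI, IL4 in red and control in blue, with 95% counting intervals. Maf goes up and Id2 and Cebpb go down along the axis in both libraries. Id2 spans 625 to 465 CPM in IL4 and 579 to 218 CPM in control.

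The other members differed less in macrophages. Klf4 had 498 CPM in IL4 and 418 CPM in control (fold 1.19, 1.14 to 1.24), and Cebpb 567 and 506 CPM (fold 1.12, 1.08 to 1.17). Spi1 had a fold of 1.10 (1.05 to 1.15) and Cebpa of 1.09 (1.003 to 1.19). The folds of Batf3, 1.09 (0.954 to 1.25), and of Tcf4, 0.975 (0.914 to 1.04), had intervals that span 1. In this gate the median log2 ratio of all genes tested was -0.12, against 0.14 for the 9 members, and scaling by the median ratio over genes gave -0.29 for Maf and 0.60 for Id2, and turned Tcf4 to 0.09.

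In the classical monocyte gate, the largest with 2772 IL4 and 1826 control barcodes, 1 of 9 members passed the limit, against 4.44% of 13051 genes (2.57% higher and 1.88% lower). It was again Zbtb46, on 123 IL4 and 42 control UMIs, with 4.80 CPM in IL4 and 2.22 CPM in control (fold 2.17, 1.51 to 3.15), and this call was lost with Leiden clusters and, on 10 and 7 UMIs, for too few UMIs in Y-only barcodes. The remaining 8 genes lay between a fold of 0.878 (0.819 to 0.941) for Cebpa, with 68.6 CPM in IL4 and 78.2 CPM in control, and 1.12 (1.09 to 1.15) for Spi1. Maf, which differed in macrophages, had 199.97 CPM in IL4 and 194 CPM in control monocytes (fold 1.03, 0.986 to 1.07).

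In the cDC1 gate, with 217 IL4 and 151 control barcodes, 1 of 9 members passed, against 12.8% of 10224 genes (5.23% higher and 7.52% lower). Maf had 26.1 CPM in IL4 and 11.6 CPM in control on 93 and 35 UMIs (fold 2.26, 1.51 to 3.43), both far under the macrophage level. The 12 macrophage markers summed to 247 CPM in IL4 and 176 CPM in control in this gate, with 0 of 12 at 0, and their part in the Maf difference was not tested. In Xist-only barcodes the fold was 3.65 on 82 and 13 UMIs, and in Y-only barcodes 0.447 on 2 and 10 UMIs. The call was also lost with 1 more marker, with best-gate assignment and with Leiden clusters. Zbtb46 had 72.1 CPM in IL4 and 96.2 CPM in control (fold 0.750, 0.632 to 0.890), and Batf3, the factor of these cells, 216 and 205 CPM (fold 1.06, 0.948 to 1.17).

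In cDC2 0 of 9 members passed, against 7.2% of 12007 genes (2.6% higher and 4.6% lower), and in mature dendritic cells 0 of 9, against 12.9% of 10183 genes (6.29% higher and 6.65% lower). The cDC2 folds ran from 0.943 (0.907 to 0.981) for Klf4 to 1.13 (1.01 to 1.27) for Batf3. Those in mature dendritic cells ran from 0.946 (0.907 to 0.987) for Id2 to 1.33 (0.960 to 1.86) for Maf, on 118 IL4 and 56 control UMIs. Zbtb46 in its top gate had a fold of 0.952 (0.866 to 1.05) with 225 CPM in IL4 and 236 CPM in control.

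**Figure D5:**
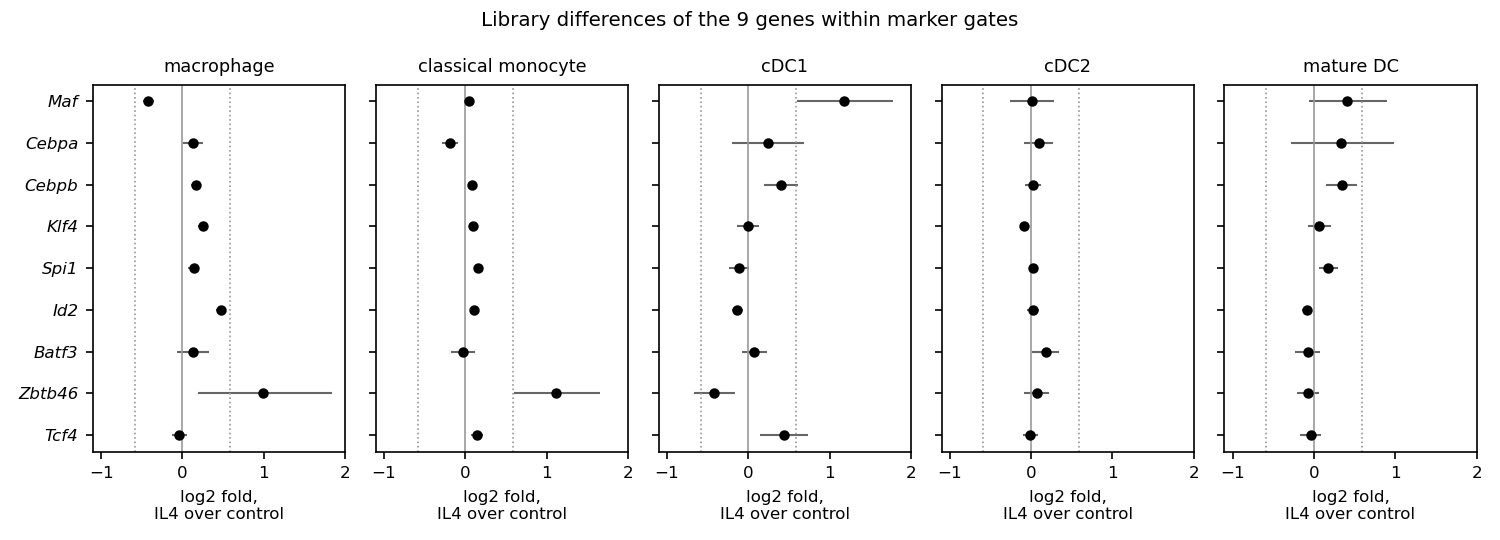
Log2 fold of IL4 over control for the 9 genes (down) in 5 gates, with 95% counting intervals. The solid line is no difference and the dotted lines are 1.5-fold. Most points lie between the dotted lines, and those beyond are Zbtb46 in macrophages and classical monocytes and Maf in cDC1.

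The pDC gate held 55 IL4 and 17 control barcodes. In it 4 of 6 members tested were at least 1.5-fold higher and 0 lower, against 17.2% and 14.2% of 4797 genes (31.4% in either direction). Of these 4, Spi1 had a fold of 1.64 (0.877 to 3.33) on 66 and 12 UMIs, with an interval that spans 1. Cebpa had a fold of 4.46 (1.43 to 22.4) on only 45 IL4 and 3 control UMIs. Klf4 led with 645 CPM in IL4 and 120.4 CPM in control on 342 and 19 UMIs (fold 5.35, 3.38 to 9.003). The value moved with how barcodes of several gates were treated: assigning them to their best gate gave 107 and 32 barcodes, with 555 CPM in IL4 and 398 CPM in control (fold 1.39, 1.17 to 1.68). A Leiden cluster named pDC, with 153 and 61 barcodes, gave 543 and 496 CPM (fold 1.09, 0.976 to 1.23). Cebpb moved likewise, with a fold of 3.12 in the gate, 1.77 with best-gate assignment and 1.45 in the cluster. With best-gate assignment 2 of 8 members tested passed the limit, Cebpa (log2 ratio 1.25) and Cebpb (0.82). In the cluster none of Spi1 (-0.25), Cebpa (0.34), Cebpb (0.53) and Klf4 (0.13) passed, and the 2 of 9 that did were Maf (0.63) and Id2 (0.59, against -0.56 in the gate). Tcf4 stayed within a fold of 0.886 to 0.975 over these 3 settings.

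Other transcription factors of these lineages were counted from a list of 41 genes chosen with earlier results known. In macrophages 36 were tested, 6 were at least 1.5-fold higher and 1 was lower, against 3.61% higher and 7.32% lower among all genes tested. Their log2 ratios had a median of 0.22, against -0.12 for all genes. The 15 monocyte and macrophage factors held 0 that passed. Nr1h3, an oxysterol receptor, had 55.4 CPM in IL4 and 38.6 CPM in control (fold 1.43, 1.25 to 1.65), and Egr1, an immediate early factor, 441 and 312 CPM (fold 1.42, 1.35 to 1.49). Spic, a factor of red pulp macrophages, had 10.5 CPM in IL4 and 7.19 CPM in control (fold 1.45, 1.04 to 2.04), and Klf2, a relative of Klf4, 1361 and 998 CPM (fold 1.36, 1.33 to 1.40). All 4 thus lay above 1 and under the limit.

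Among 13 dendritic factors tested 2 were higher. These were Rel, an NF-kB subunit, with 721 CPM in IL4 and 475 CPM in control (fold 1.52, 1.46 to 1.58), and Zeb1, with 17.2 and 10.9 CPM (fold 1.57, 1.21 to 2.06). Ikzf1, which encodes Ikaros, had 86.4 CPM in IL4 and 119 CPM in control (fold 0.727, 0.662 to 0.798), and Bcl11a, a factor of pDC and B cells, 2.54 and 3.85 CPM (fold 0.660, 0.374 to 1.16). Id3, the relative of Id2, was higher with 219.7 CPM in IL4 and 141 CPM in control (fold 1.56, 1.45 to 1.68), while Id1 had 28.1 and 24.3 CPM (fold 1.16, 0.960 to 1.40). Of 2 granulocyte factors tested 1 was lower, and Per1, which did not pass, had 79.8 CPM in IL4 and 68.1 CPM in control (fold 1.17, 1.05 to 1.31). Of 6 lymphocyte factors 4 were tested and 3 were higher, each below 6 CPM in both libraries. Tbx21, which encodes T-bet, had 5.59 CPM in IL4 and 3.35 CPM in control (fold 1.67, 1.03 to 2.75). In the same gate summed T cell markers had 21.0 CPM in IL4 and 13.3 CPM in control and NK markers 11.7 and 5.58 CPM, and the part of such transcripts was not tested.

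Genes known as targets of the members were counted in the same way. Of 20 target genes 17 were tested in macrophages, of which 4 were higher and 0 were lower, against the same 3.61% and 7.32% of all genes. Their log2 ratios had a median of 0.09, against -0.12 for all genes. Among the genes linked to Maf, Il10, an anti-inflammatory cytokine, had 256 CPM in IL4 and 83.6 CPM in control (fold 3.07, 2.82 to 3.34), while Mrc1, the mannose receptor and one of the gate's markers, had 495 and 665 CPM (fold 0.745, 0.716 to 0.774). C1qc, a chain of complement C1q and also a marker of the gate, had 1611 CPM in IL4 and 1501 CPM in control (fold 1.07, 1.05 to 1.10). C1qa and C1qb, which are on the same list, are gate markers too, so the levels of these genes are not independent of the gating. Maf itself was lower beside values in both directions.

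Among the PU.1 and C/EBP targets, Cd14, a co-receptor for lipopolysaccharide, had 764 CPM in IL4 and 422 CPM in control (fold 1.81, 1.74 to 1.89), and Lyz2, lysozyme, 4049.5 and 6016 CPM (fold 0.673, 0.664 to 0.682), within the 1.5-fold limit on the scale used. Mpeg1, a pore-forming protein, had 248 CPM in IL4 and 211 CPM in control (fold 1.18, 1.11 to 1.25), and Csf1r, the receptor for M-CSF, 220.5 and 258 CPM (fold 0.856, 0.806 to 0.909). Of 3 pDC genes tested in macrophages 2 were higher. Irf7, a factor of the type I interferon response, had 217 CPM in IL4 and 129 CPM in control (fold 1.68, 1.56 to 1.81), and Tlr7, a receptor for RNA, 36.1 and 35.6 CPM (fold 1.01, 0.864 to 1.19).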

How the data were processed

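CD45-positive tumour leukocytes were measured in 2 libraries, 1 per group. The deposited tables hold raw counts of UMIs for every gene in every barcode. Cell Ranger 7.2.0 and the mm10 build are named per the submitters' processing notes. The annotation version and the treatment of intronic reads are not given in the sources used here. Filters of 500 UMIs and 250 genes as minimum and of 10% mitochondrial UMIs as maximum kept 13762 IL4 and 8937 control barcodes. Gates asked for UMIs of most of a type's markers, a threshold chosen after marker counts had been seen, and barcodes meeting several gates were set apart. Counts were summed per gate and library and scaled to CPM, with exact Poisson intervals. Shares carry exact Clopper-Pearson intervals. Log2 ratios used a pseudocount of 1 CPM, and folds none, with exact conditional intervals. Calls asked for 1.5-fold and 20 UMIs. Shares were also taken after thinning to 1000 UMIs. The scripts were tested on simulated data. Named genes besides the 9 members were those with the largest absolute log2 ratio of each list in the macrophage gate, at most 4 with at least 50 UMIs, and the 3 best matches in pattern of each member. 1 gene that this rule names is not reported here. The members and lists were chosen with earlier results of these data known. Sequences are from RefSeq, where 6 of the 9 genes had an entry. Alternatives were other scalings, filters, gates and Leiden clusters, and Xist-only and Y-only barcodes. Python 3.11.15, numpy 2.4.6, scipy 1.17.1, pandas 2.3.3, scanpy 1.11.5 and matplotlib 3.10.9 were used.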

Additional observations from a re-analysis of the deposited data

Results flagged for a closer look

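Tcf4 in mature dendritic cells moved in opposite directions in the barcodes of either sex. In Xist-only barcodes it had 258 CPM in IL4 and 223 CPM in control, a log2 ratio of 0.214 (fold 1.16, 1.02 to 1.32). In Y-only barcodes, 64 in IL4 and 68 in control, it had 192 CPM in IL4 and 283 CPM in control, a log2 ratio of -0.556 (fold 0.679, 0.547 to 0.840). The difference between the 2 ratios was not tested, and over all barcodes of the gate Tcf4 had 249 CPM in IL4 and 256 CPM in control.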

How the results depend on the processing

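No paired analysis was possible because each group holds 1 library. Of 495 log2 ratios recomputed in the 5 main gates, 392 moved by less than counting error, 101 moved by more and 2 reversed. The alternative without the minimum of 20 UMIs for a call cannot move a ratio, so all its ratios count among the 392. Reversed ratios were those past 1.5-fold that changed sign. Zbtb46 in macrophages became -0.063 with Leiden clusters (17 and 15 UMIs), and Maf in cDC1 became -1.03 in Y-only barcodes (2 and 10 UMIs). Sign changes of any size numbered 49, and in 10 of them the interval as reported did not span 1; besides those 2 ratios, Cebpb and Tcf4 in cDC1 became -0.37 and -0.41 in Y-only barcodes, against 0.40 and 0.43 as reported, and the other 6 lay within 0.07 of 0. In pDC, Spi1 became -0.25 with Leiden clusters, and the 4 members past 1.5-fold became 2 with several gates assigned to the best (Cebpa and Cebpb) and 2 with Leiden clusters (Maf and Id2). The number of members past 1.5-fold in macrophages, 1 as reported, was 2 with median-ratio scaling and with 1 more marker (Id2 and Zbtb46), and 0 with the mean of per-cell CPM and in Y-only barcodes; with Leiden clusters and in Xist-only barcodes it was 1, but the gene was Id2. In classical monocytes the 1 became 0 with Leiden clusters and in Y-only barcodes. In cDC1 the 1 became 2 with the mean of per-cell CPM (Maf and Zbtb46) and in Xist-only barcodes (Maf and Cebpb), and 0 with 1 more marker, with several gates assigned to the best, with Leiden clusters and in Y-only barcodes. In cDC2 the 0 became 1 in Y-only barcodes (Maf). The cause of these moves was not tested. The mature dendritic cell count was 0 under all alternatives run. Id2 in macrophages ran between log2 ratios of 0.09 in Y-only barcodes and 0.99 with Leiden clusters, and Maf between -0.53 and -0.29. Of the 9 genes, 8 in IL4 and 7 in control kept their top cell type with Leiden clusters, and all 9 did with 1 more marker or with several gates assigned to the best, the last chosen after seeing the data for the levels and for pDC. Few UMIs limit Zbtb46 in monocytes and macrophages, and few barcodes limit all genes in pDC, B cells and non-classical monocytes. Neutrophils were the shallowest gate, with medians of 2470 UMIs in IL4 and 2889.5 UMIs in control.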

Other observations

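Outside the main gates, members past 1.5-fold are given with the share of all genes tested that passed the same limit in either direction. In NK cells, where 14.0% of genes passed, Maf was lower at 55.2 CPM in IL4 and 85.1 CPM in control (fold 0.649, 0.521 to 0.810), and Cebpa was higher at 14.1 and 8.38 CPM on 58 and 13 UMIs (fold 1.68, 0.911 to 3.35), with an interval that spans 1. In neutrophils, with 25.6% of genes, Maf was lower at 27.3 CPM in IL4 and 66.6 CPM in control on 10 and 58 UMIs (fold 0.410, 0.187 to 0.809), and Cebpa was higher on 22 and 20 UMIs (fold 2.61, 1.36 to 5.05). In T cells without CD8 transcripts, with 18.5% of genes, Spi1 was higher at 157 CPM in IL4 and 102 CPM in control (fold 1.54, 1.22 to 1.95), and so was Tcf4 at 88.1 and 58.0 CPM (fold 1.52, 1.11 to 2.08). Maf, which was second highest in these cells, had a fold of 0.960 (0.803 to 1.15) there. In non-classical monocytes, with 32.3% of genes, Tcf4 was higher on 22 and 13 UMIs (fold 2.04, 0.982 to 4.40). In B cells, with 45.3% of genes, Cebpb was lower at 122 CPM in IL4 and 274 CPM in control on 23 and 84 UMIs (fold 0.445, 0.268 to 0.713), and Id2 at 85.0 and 157 CPM on 16 and 48 UMIs (fold 0.542, 0.287 to 0.971). The B cell markers summed to 16190 CPM in IL4 and 5604 CPM in control in that gate and the mature dendritic cell markers to 430.2 and 807 CPM, and the log2 ratios of all its genes had a median of -0.36; their part was not tested. In CD8 T cells 0 of 9 members passed, against 11.5% of genes.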
